A study of Mus musculus with 6 samples.

Results

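The genes of bone morphogenetic protein (BMP) and transforming growth factor beta (TGF-beta) signalling were examined in tissue of the mouse medial ganglionic eminence (MGE), a part of the ventral telencephalon whose progenitors give rise to many cortical interneurons. Members were chosen by symbol: numbered BMPs, TGF-betas and activin subunits, their receptors, the Smads, 4 antagonists (Nog, Chrd, Fst, Bambi) and the Id genes. The choice gave 44 of the 34745 genes in the deposited table, and 31 of the 44 passed the filter on low counts. MGE RNA of mouse embryos at day 12.5 was sequenced from 3 wild type littermate controls and 3 Sp9-/- samples (null), all on a mixed background of CD1, 129S6 and C57BL/6J. Sp9 is a zinc finger transcription factor, and the labels name no Cre or transgene and do not describe the allele. Whether a sample was 1 embryo or a pool is not stated, though sex-linked genes, given below, show RNA of both sexes in several libraries. How much of the spread that p-values rest on here is technical is not known.

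BMPs and TGF-betas are secreted dimers that assemble a complex of type I and type II serine/threonine kinase receptors. BMP type I receptors phosphorylate Smad1, Smad5 and Smad9, TGF-beta and activin type I receptors phosphorylate Smad2 and Smad3, and both sets enter the nucleus with Smad4. Id genes are classical BMP targets, and their proteins sequester basic helix-loop-helix factors that drive neuronal differentiation. In the embryonic forebrain BMPs come mainly from the dorsal midline, and their antagonist noggin keeps ventral territory free of dorsalising signal.

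Library totals ran from 6826447 to 10979280 counts, where 3 counts correspond to 0.273 to 0.439 CPM (counts scaled to equal library totals). Sp9 had 1870 to 2700 counts in the wild type and 89 to 118 in the null libraries. All 9 MGE markers looked up, Nkx2-1 and Lhx6 among them, were counted in every library. Replicate 2 of both genotypes stood apart from the other libraries on the first principal component (50.5% of the variance). The mitochondrial share of counts was 2.20% to 2.28% in wild type but 2.32%, 3.43% and 3.41% in null replicates 1, 2 and 3. Xist, of the inactive X chromosome, had 2660, 2389 and 644 CPM in wild type replicates 1, 2 and 3, after edgeR's library scaling. In null replicates 1, 2 and 3 it had 1388, 1037 and 2.04 CPM, lower at each replicate number. The Y-linked Ddx3y had 1.77, 22.1 and 51.7 CPM in wild type and 37.0, 52.8 and 56.2 CPM in null libraries, higher at each. Both were well counted in wild type 2 and 3 and null 1 and 2, so these held RNA of both sexes. Sex composition thus differed between libraries, and its part in the differences of the signalling genes was not tested. Between genotypes the ranges of Xist and of Ddx3y overlapped. Neither gene passed edgeR's test (adjusted p = 0.957 and 0.938, and 0.655 and 0.635 with the replicate block described below). Transcripts of 11 stomach and pancreas genes, chosen after their values were seen, summed to 101 to 129 CPM in each wild type library and were at 0 in each null library. The part of this RNA in the differences of the signalling genes was not tested. The MGE markers themselves moved with genotype: their summed level was 646 to 691 FPKM in wild type and 745 to 760 FPKM in null libraries, and in the fit with the replicate block described below 2 rose (Dlx1, Dlx2) and 3 fell (Lhx6, Nkx6-2, Gad1). Their part in the differences of the signalling genes was not tested.

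Several receptors, Smad2, Smad4, Smad5 and Id4 were above the median gene in this tissue, while most BMP ligands were near 0. Levels between genes are compared here in FPKM (counts scaled by gene length and library total), as the mean of the 6 libraries. Id4 had the highest level of the 44 genes, at 82.2 FPKM, above 97.7% of all tested genes, whose median was 5.17 FPKM. It made up 88.2% of the summed Id level, with Id2, Id1 and Id3 at 4.44, 3.80 and 2.78 FPKM. Smad4, the shared partner Smad, stood at 25.9 FPKM, and the type I receptors Tgfbr1, Bmpr1a and Acvr1b stood at 25.1, 21.6 and 21.5 FPKM. Among type II receptors Acvr2b led with 21.2 FPKM, followed by Acvr2a (14.6 FPKM) and Bmpr2 (12.1 FPKM), while the TGF-beta type II receptor Tgfbr2 had 1.03 FPKM. The BMP-branch Smads (Smad1, Smad5, Smad9) summed to 27.0 ± 0.35 FPKM in wild type and 26.0 ± 1.39 in null libraries (SD, n = 3 each), and the TGF-beta-branch Smads (Smad2, Smad3) to 24.9 ± 1.0 and 24.4 ± 1.60.

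**Figure D1:**
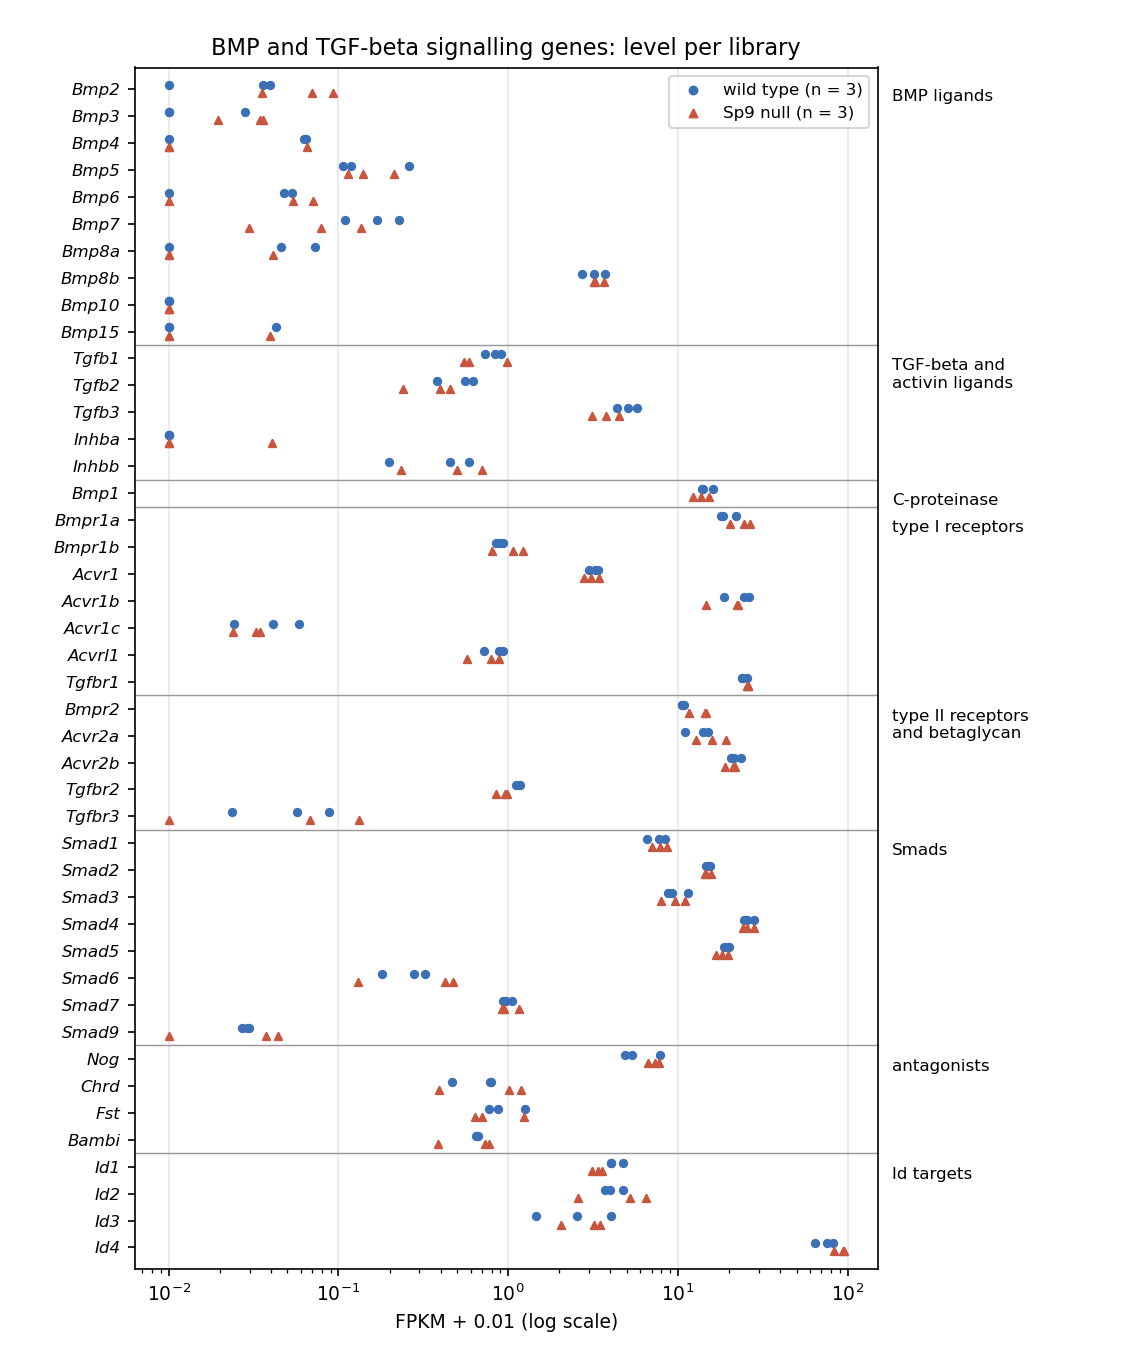
Level of each of the 44 genes in FPKM plus 0.01 on a log axis, 1 point per library, grouped by role; circles are wild type, triangles Sp9 null libraries (n = 3 each). Id4 is the highest, at a mean of 82.2 FPKM, and Bmp8b is the only BMP ligand with a library above 0.3 FPKM.

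Genotype as the only term called no member: 0 of 31 passed edgeR's quasi-likelihood test at an adjusted p under 0.05, beside 0.147% of all 14929 tested genes (0.0469% higher and 0.10% lower in null). The 15 lower genes in that share included Sp9 itself and the 11 stomach and pancreas genes above. DESeq2 without a block also called 0 members, beside 0.563% of all tested genes. At an unadjusted p under 0.05 edgeR gave 3 higher members (Bmpr1a, Bmpr2 and Id4; 2.95% of all tested genes) and 1 lower (Tgfb3; 2.96%), 5.91% of all tested genes in either direction. Libraries of the same replicate number deviated together, and a block for that number was fitted as an alternative. The pairing was taken from the data and not from the labels. Deviations of wild type 1 correlated by 0.337 with null 1 and by 0.348 with null 3, so numbers 1 and 3 were not told apart. With the block 4 members rose, namely the receptor genes Bmpr1a, Bmpr2 and Acvr2a and the target gene Id4, and 0 fell. The 4 are 12.9% of the 31, beside 2.22% of all tested genes called higher, 1.78% called lower and 4.0% called in all. Of the 4, DESeq2 with the block called Bmpr1a, Bmpr2 and Id4, beside 1.09% of all tested genes. None of the 4 calls held in all 3 fits that left out a replicate pair, which 0.569% of all tested genes did, and without replicate 2 of both genotypes 0 members were called. At an unadjusted p under 0.05 the blocked fit gave those 4 as higher (8.83% of all tested genes) and Tgfb3 and Acvr1b as lower (8.41%).

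The members' median lay near 0. The median log2 ratio of null to wild type was 0.01 over the 31 members in both fits, beside -0.005 over all tested genes (-0.007 with the block). In 1 member, Bmpr2, all null libraries lay above the wild type range (5.86% of all tested genes), and in Tgfbr2 and Id1 all lay below it (6.71%). The null library was higher in all 3 replicate pairs in 5 members (16.1%), beside 18.1% of all tested genes, and lower in all 3 in 7 members (22.6%), beside 19.5%, so that such agreement by itself was common. Scaled by library totals alone, Id4 joined Bmpr2, and those shares over all genes became 4.95% and 8.06%. In the text below a difference is the log2 ratio of null to wild type, followed by its SE, and adjusted p-values are edgeR's over all tested genes.

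**Figure D2:**
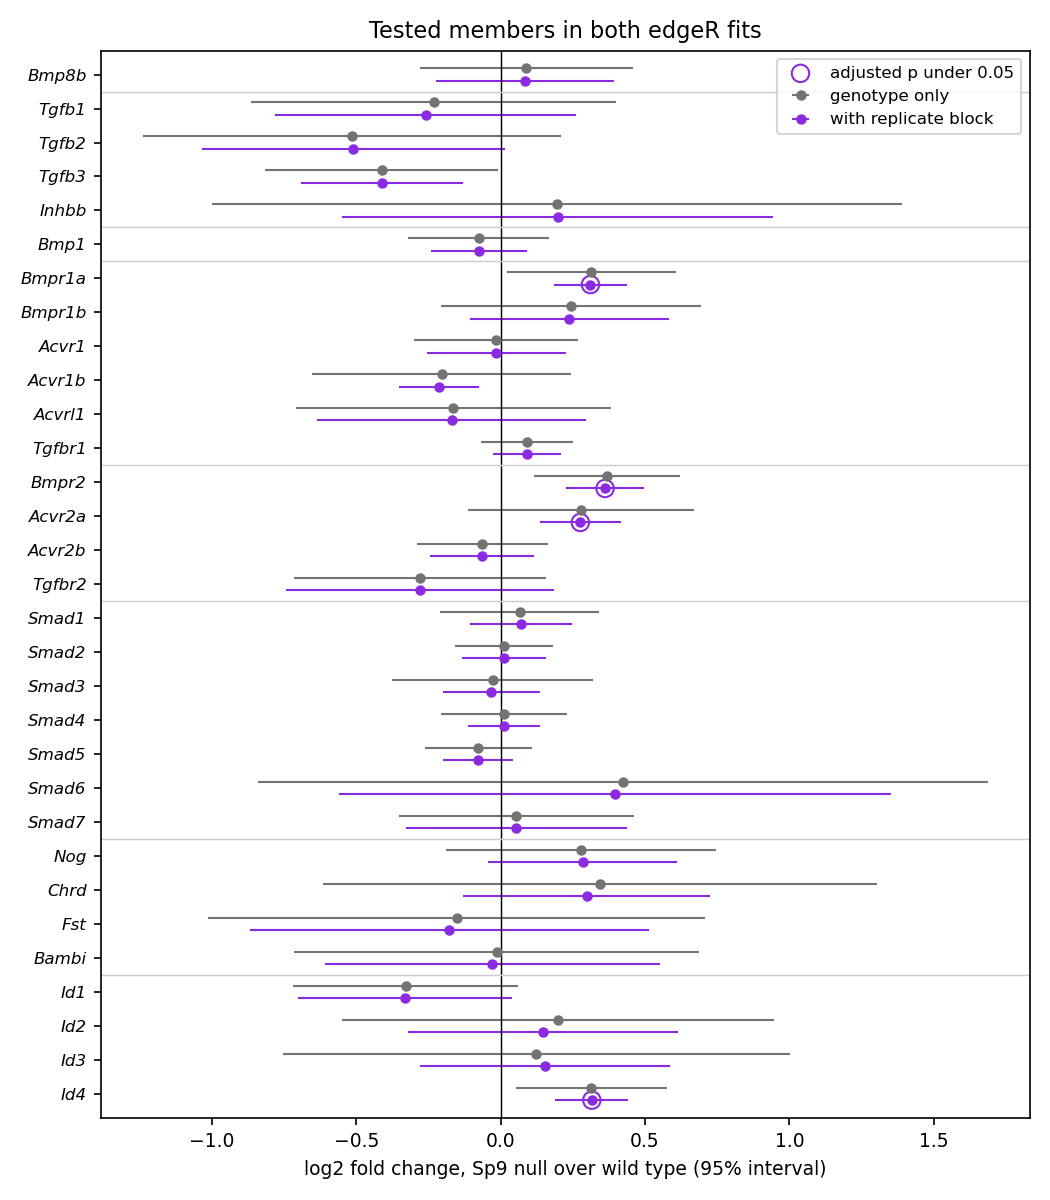
Log2 ratio for each tested member, null over wild type, with 95% intervals from both edgeR fits; grey is genotype only, violet the fit with the replicate block, and rings mark an adjusted p under 0.05. The estimates of both fits nearly coincide; the rings are on Bmpr1a, Bmpr2, Acvr2a and Id4.

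Bmpr2, the BMP type II receptor gene (chromosome 1, 59763400 to 59879014), had the largest rise of the 4. Its TMM-scaled CPM (CPM after edgeR's library scaling, used for all levels of single genes from here on) was 193, 199 and 191 in wild type replicates 1, 2 and 3 and 209, 275 and 269 in null replicates 1, 2 and 3. The genotypes did not overlap, as in 12.6% of all tested genes, but null replicate 1 lay close to the wild type libraries. The mean went from 195 ± 4.09 to 251 ± 36.6 CPM (SD, n = 3 each), a difference of 0.36 ± 0.07 with the block (edgeR adjusted p = 0.00091) against an adjusted p of 0.635 without it. Null replicates 2 and 3, where Bmpr2 was high, were also those with the higher mitochondrial share, and the part of that share in the result was not tested. Left out in turn, replicate pairs 1, 2 and 3 gave blocked adjusted p-values of 4.16e-10, 0.163 and 0.137 in edgeR.

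Bmpr1a (chromosome 14, 34410734 to 34503341) encodes a BMP type I receptor. It had 127, 152 and 122 CPM in wild type and 168, 188 and 142 CPM in null replicates 1, 2 and 3. Replicate 2 was the highest library of each genotype and the groups overlapped, while the null library was higher in 3 of 3 pairs, by 1.33, 1.24 and 1.16 times. With the block the difference was 0.31 ± 0.06 (edgeR adjusted p = 0.00135, and 0.812 without the block). Without pair 2 the adjusted p was 0.10, and without pairs 1 and 3 it was 0.00526 and 0.0222. The predicted gene Gm17110, within the Bmpr1a locus on the other strand, had 182 counts in all and a blocked difference of 0.58 ± 0.29, which did not pass.

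Acvr2a (chromosome 2, 48814109 to 48903269) encodes a type II receptor that serves activins and BMPs. Its levels were 89.5, 69.6 and 94.8 CPM in wild type and 101, 83.7 and 124 CPM in null replicates 1, 2 and 3. Here replicate 2 was the lowest library of each genotype, and again the null library was the higher in 3 of 3 pairs. The blocked difference was 0.28 ± 0.07 (edgeR adjusted p = 0.0142, and 0.897 without the block). It was lost without pair 2 (adjusted p = 0.205), without pair 3 (0.349) and in DESeq2's blocked fit (0.270). Without the block the difference, also 0.28, moved to 0.12 without null replicate 3 and to 0.16 without wild type replicate 2. Acvr2a lies 24.4 Mb from Sp9 and shares 446 bases of its 3′ end with Orc4 on the other strand, and library strandedness is not stated, so reads there may belong to either. Orc4, a subunit gene of the origin recognition complex, had a blocked difference of 0.19 ± 0.07 (adjusted p = 0.124) and did not pass.

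The other receptors were not called. Tgfbr1, the TGF-beta type I receptor gene, had 217, 217 and 232 CPM in wild type and 229, 241 and 239 CPM in null replicates 1, 2 and 3; the ranges overlapped, at a blocked difference of 0.09 ± 0.06 (edgeR adjusted p = 0.434). Acvr2b, the paralogue of Acvr2a, had 44.6, 46.8 and 50.8 CPM in wild type and 45.4, 48.7 and 42.0 CPM in null libraries. Without the block its difference was -0.06, with a 95% interval of -0.29 to 0.16. Acvr1b, an activin type I receptor gene, had 108, 81.7 and 114 CPM in wild type and 98.2, 65.9 and 99.8 CPM in null libraries, lower in 3 of 3 pairs. It missed the threshold with the block, at -0.21 ± 0.07 (edgeR adjusted p = 0.0721), and passed without pair 1 (0.0346) but not without pair 2 (0.513) or pair 3 (0.347). Tgfbr2 had 5.19 to 5.52 CPM in wild type and 4.07 to 4.76 CPM in null libraries, without overlap, but its blocked difference of -0.28 ± 0.23 did not pass. Bmpr1b (a BMP type I receptor), Acvr1 and the endothelial receptor gene Acvrl1 had differences of 0.24, -0.02 and -0.16 without the block and did not pass. Acvr1c and the coreceptor gene Tgfbr3 were under the filter, with 19 and 25 counts over all libraries.

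Id4 (chromosome 13, 48261427 to 48264036), the Id gene that dominates in this tissue, had 105, 125 and 136 CPM in wild type and 135, 160 and 159 CPM in null replicates 1, 2 and 3. Null replicate 1 lay just under wild type replicate 3, and the null library was higher in 3 of 3 pairs. From 122 ± 15.3 to 151 ± 13.9 CPM (SD, n = 3 each), its blocked difference was 0.32 ± 0.06 (edgeR adjusted p = 0.00127, and 0.782 without the block). Its adjusted p was 0.115 without pair 2 and 0.00175 and 0.0218 without pairs 1 and 3. Id4 shares 1197 bases with the antisense gene A330033J07Rik, whose blocked difference was 0.07 ± 0.10.

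Id1 had lower values in the null libraries. It had 8.33, 9.85 and 8.38 CPM in wild type and 6.94, 7.65 and 6.53 CPM in null replicates 1, 2 and 3, with no overlap between genotypes. Its difference of -0.33 ± 0.18 with the block (edgeR adjusted p = 0.360) did not pass. Id1 rests on 48 to 108 counts per library. Id2 had 4.68, 5.02 and 5.99 CPM in wild type and 6.51, 3.36 and 8.25 CPM in null libraries, where the null spread covered the wild type range, at a blocked difference of 0.15 ± 0.23. Id3 ranged from 3.29 to 9.21 CPM in wild type and from 4.71 to 7.81 CPM in null libraries. Neither passed.

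**Figure D3:**
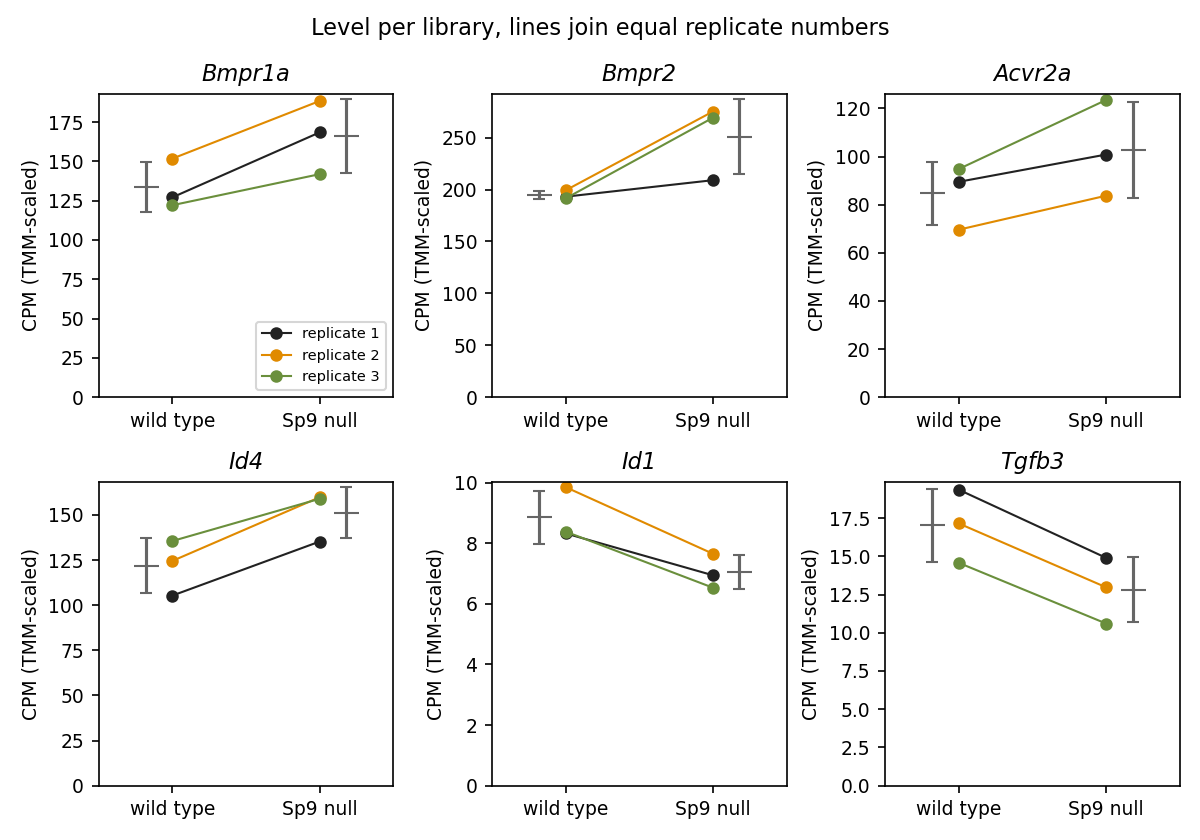
TMM-scaled CPM per library of the 4 genes called with the block and of Id1 and Tgfb3, axes starting at 0; lines join equal replicate numbers, and grey bars are the mean with its SD (n = 3). Lines rise in all 3 pairs for Bmpr1a, Bmpr2, Acvr2a and Id4 and slope down in all 3 for Id1 and Tgfb3, which did not pass.

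For the 4 genes called with the block, the 250 bases upstream of their RefSeq starts (GRCm38.p6) were searched on both strands for 3 motifs. These were GGGCGG, the GC box bound by Sp factors, GGCGCC, a GC-rich element bound by Smad proteins, and CAGAC, the Smad box. The Acvr2a and Id4 windows are shown, with matches in capitals; those of Bmpr1a and Bmpr2 lie inside the gene spans given above and are only counted.
Acvr2a (chr2:48813859-48814108, plus strand): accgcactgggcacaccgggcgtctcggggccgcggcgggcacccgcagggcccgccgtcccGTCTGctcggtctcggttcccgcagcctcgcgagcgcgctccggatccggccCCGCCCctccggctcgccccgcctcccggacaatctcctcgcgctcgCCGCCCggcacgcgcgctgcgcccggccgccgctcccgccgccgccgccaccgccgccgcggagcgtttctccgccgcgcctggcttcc
Id4 (chr13:48260866-48261115, plus strand): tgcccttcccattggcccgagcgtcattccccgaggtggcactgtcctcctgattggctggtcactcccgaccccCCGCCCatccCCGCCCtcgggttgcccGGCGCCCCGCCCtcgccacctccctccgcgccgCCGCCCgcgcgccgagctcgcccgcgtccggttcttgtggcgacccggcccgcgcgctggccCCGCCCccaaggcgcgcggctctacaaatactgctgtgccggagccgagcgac
Id4 held 5 GC boxes, Bmpr1a 4, Acvr2a 2 and Bmpr2 1. GGCGCC occurred 1 time each in Id4, Bmpr1a and Bmpr2 and 0 times in Acvr2a, which alone of the 4 held a Smad box. In none of the 4 did a GC box share a base with a GGCGCC match. Among all 32851 promoter entries of that length, 32.7% held a GC box, 9.59% GGCGCC and 42.2% a Smad box. Among the 36 entries that matched 30 of the 44 members, called or not, 69.4%, 22.2% and 36.1% did. Member promoters also had more G and C, with a median of 64.6% against 52.4% over all entries, and the first 2 motifs consist of G and C alone. A match is a description of the letters, not a binding site.

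Of the 10 BMP ligand genes 1 could be tested, and it was not called. Bmp8b, a BMP ligand known mainly from germ cells and brown fat, was that gene, with 10.4, 14.3 and 12.2 CPM in wild type and 14.03, 12.8 and 12.5 CPM in null replicates 1, 2 and 3. The ranges overlapped, and the blocked difference was 0.08 ± 0.15. Bmp8b has a close paralogue, Bmp8a (4 counts in all), and shares 4985 bases with Ppie on the other strand, so its counts are uncertain. Bmp2, Bmp3, Bmp4, Bmp6, Bmp8a and Bmp15 had 0 to 3 counts per library, and Bmp10 had 0 in all 6. Bmp5 and Bmp7, ligands of the dorsal midline and of surrounding mesenchyme, had 3 to 10 and 1 to 10 counts per library. A difference in these ligands was not detectable at this depth. Bmp1, which despite its name is a protease that processes procollagen and cleaves chordin, had 59.6, 51.5 and 52.3 CPM in wild type and 56.1, 52.4 and 46.6 CPM in null libraries. The ranges overlapped, at a difference of -0.08 ± 0.11 without the block.

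Of the TGF-beta ligands Tgfb3 was the most abundant, with 73.1% of the summed FPKM of the 5 TGF-beta and activin ligand genes. It had 19.4, 17.2 and 14.6 CPM in wild type and 14.9, 13.0 and 10.6 CPM in null replicates 1, 2 and 3. The genotypes overlapped, and the null library was lower in 3 of 3 pairs. At -0.41 ± 0.14 with the block (edgeR adjusted p = 0.0865) it did not pass. Part of its locus is shared with Ttll5 and Gm37804 on the other strand, so reads there may belong to either; Gm37804 had a blocked difference of -0.59 ± 0.32 and did not pass. Tgfb2 had a blocked difference of -0.51 ± 0.26 (adjusted p = 0.306). Tgfb1, which microglia also make, had 4.06, 5.11 and 4.69 CPM in wild type and 5.50, 3.36 and 3.11 CPM in null libraries; the ranges overlapped and its blocked difference of -0.26 ± 0.26 did not pass. Microglial markers moved with genotype: 8 of 9 were tested, all 8 had lower fitted values in null libraries, and 6 fell in edgeR's blocked fit; without the block edgeR called 0 and DESeq2 called 3. Their summed level was 8.53 to 9.35 FPKM in wild type and 2.44 to 3.65 FPKM in null libraries, with none of the 9 at 0 in all libraries. Their part in the levels of Tgfb1 and Tgfbr2 was not tested, and in bulk RNA fewer cells of a type and less RNA per cell cannot be told apart. Inhba, an activin subunit gene, had 1 count in all, and Inhbb had 8 to 27 counts per library and did not pass.

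Of the Smads 0 of 7 tested were called in either fit, and the 5 receptor-regulated and shared Smads tested differed by -0.08 to 0.07 without the block. Smad5, the most counted of them, had 261, 282 and 274 CPM in wild type and 275, 262 and 237 CPM in null replicates 1, 2 and 3. Smad4 had 139, 160 and 143 CPM in wild type and 143, 164 and 138.5 CPM in null libraries, so that each genotype covered nearly the same range. For Smad4 the 95% interval of the difference was -0.21 to 0.23, and with the block it was 0.01 ± 0.06. Smad1, Smad2 and Smad3 differed by 0.07, 0.01 and -0.03. The inhibitory Smads, themselves induced by the pathway, were low: Smad7 had 6.94 to 9.0 CPM over all libraries, and Smad6 had 4 to 18 counts, with a 95% interval from -0.84 to 1.69. Smad9 had 0 to 2 counts per library and was not tested.

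Antagonist genes were also not called, 0 of 4 in either fit. Nog, encoding noggin, was the most abundant of them at 6.61 FPKM. It had 9.05, 13.1 and 8.19 CPM in wild type and 12.9, 12.7 and 11.4 CPM in null replicates 1, 2 and 3; wild type replicate 2 lay above all null libraries. Its blocked difference of 0.28 ± 0.16 (edgeR adjusted p = 0.377) did not pass. Fst, encoding the activin-binding follistatin, had 1.77, 2.01 and 2.89 CPM in wild type and 1.59, 1.49 and 2.89 CPM in null libraries, at a blocked difference of -0.18 ± 0.34. Chrd, encoding chordin, and the pseudoreceptor gene Bambi had blocked differences of 0.30 ± 0.21 and -0.03 ± 0.29.

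Another 62 gene entries of the pathway (further ligands, extracellular regulators, coreceptors, intracellular regulators and targets) were looked up, and 35 passed the filter. Without the block 0 of the 35 passed edgeR's test, with 0 at an unadjusted p under 0.05, and DESeq2 called 0. With the block 0 rose and 1 fell, beside the 2.22% and 1.78% of all tested genes. The gene that fell was Rgmb, whose glycosylphosphatidylinositol-anchored protein is a BMP coreceptor. Its levels were 65.5, 48.5 and 69.9 CPM in wild type and 46.7, 30.4 and 62.6 CPM in null replicates 1, 2 and 3. Replicate 2 was again lowest in each genotype, the ranges overlapped, and the null library was lower in 3 of 3 pairs. At -0.43 ± 0.09 with the block the edgeR adjusted p was 0.00311, against 0.903 without it; the call was lost without pair 2 (0.30) and in DESeq2's blocked fit (0.122). Without the block the difference of -0.40 moved to -0.16 without null replicate 2 and to -0.67 without null replicate 3. Its paralogue Rgma, at 21.4 FPKM, had a blocked difference of 0.10 ± 0.06 and did not pass.

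With Rgmb, the 3 largest differences without the block among these genes were those of Ctgf and Tgif1. Ctgf, a TGF-beta target gene, had 1.46, 1.82 and 2.20 CPM in wild type and 2.75, 2.52 and 2.89 CPM in null libraries, a difference of 0.57 ± 0.28 (edgeR adjusted p = 0.889). Tgif1, encoding a corepressor recruited by Smad2 and Smad3, had 5.52, 5.11 and 4.09 CPM in wild type and 3.33, 3.92 and 3.43 CPM in null libraries, a difference of -0.46 ± 0.22 (adjusted p = 0.878). Neither passed in either fit, and neither overlapped between genotypes. Msx1 and Msx2, homeobox genes that mark strong BMP signalling dorsally, had 0 to 2 counts per library. Twsg1, encoding an extracellular BMP-binding protein, was the most abundant extracellular regulator at 30.2 FPKM, with a difference of 0.11 ± 0.07, and Gdf11 the most abundant other ligand at 8.48 FPKM, with -0.01 ± 0.14.

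Several members differed between replicate 2 and the other libraries in the same direction in both genotypes. Of the 19 tested members at 3 FPKM or more, 14 deviated to the same side in both, and the 4 that deviated by 0.25 or more on the log2 scale in both did so to the same side. The matching shares over all tested genes were not computed. Replicate 2 also stood apart over the tested genes as a whole (first principal component, 50.5% of the variance), so these counts are not particular to the members. Acvr1b and Acvr2a were lower in replicate 2, by log2 values of -0.44 and -0.40 in wild type and -0.59 and -0.42 in null libraries. Smad3 and Bmpr1a were higher, by 0.35 and 0.28 in wild type and 0.36 and 0.28 in null libraries. Markers of cortical excitatory neurons were also low in replicate 2: the 6 genes, none at 0 in all libraries, summed to 0.30 and 0.37 FPKM there against 2.65 to 7.06 FPKM in the other libraries. Of the 6, Tbr1 and Eomes passed the filter on low counts, with blocked differences of 0.81 and 0.96, and Tbr1 rose with the block. The 6 summed to 2.65 and 3.56 FPKM in wild type replicates 1 and 3 and to 3.93 and 7.06 FPKM in null replicates 1 and 3, so these markers were higher in null beside the 4 called rises. The 4 hypothalamic markers, Otp among them, summed to 0.10 and 0.04 FPKM against 0.72 to 1.37. Their part in the levels of these receptors, and in the 4 called rises, was not tested.

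**Figure D4:**
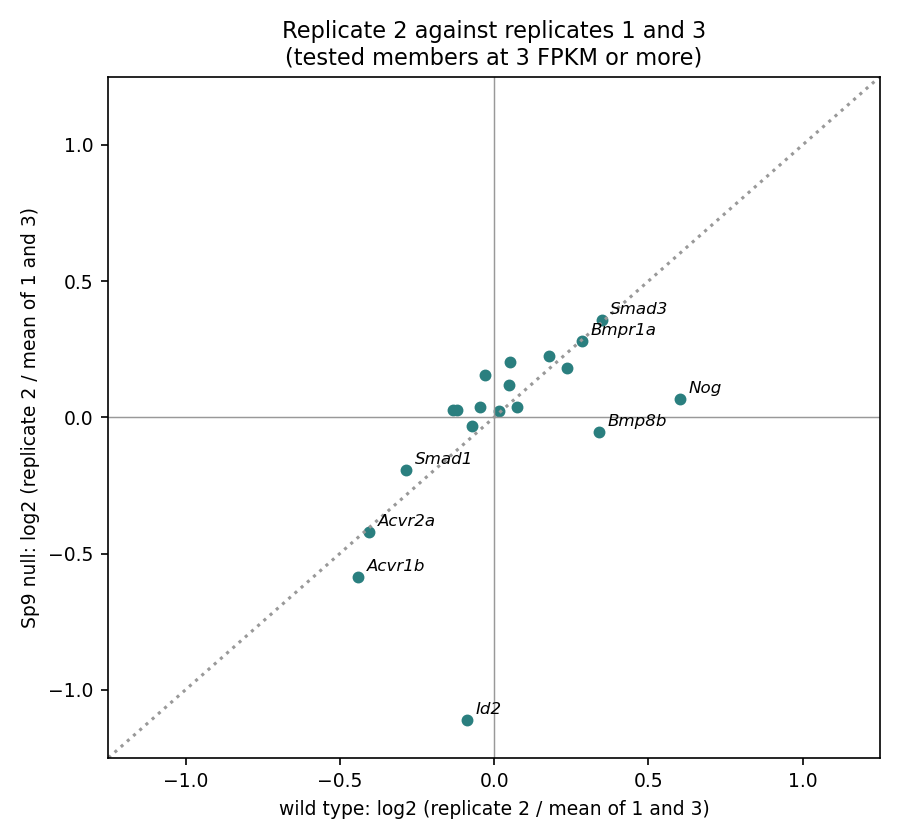
For each of the 19 tested members at 3 FPKM or more, the log2 ratio of replicate 2 to the mean of replicates 1 and 3 in wild type (horizontal) and Sp9 null (vertical) libraries, from TMM-scaled CPM plus 0.1; the dotted line is equality. Acvr1b and Acvr2a lie low in both genotypes, Smad3 and Bmpr1a high, and Id2 is low in the null library alone.

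Markers of the other cell types and regions looked up are given beside these results. The 9 endothelial markers, cells where Acvrl1, Tgfbr2, Id1 and Id3 are known to be active, summed to 27.9 to 32.7 FPKM in wild type and 27.3 to 30.1 FPKM in null libraries. None of the 9 was at 0, and 0 were called in either fit. The 5 pericyte markers summed to 9.22 to 10.9 and 8.17 to 11.5 FPKM, and the 8 markers of meninges and mesenchyme to 2.59 to 3.21 and 3.15 to 3.59 FPKM. For the dorsal midline, hem and choroid plexus, sources of BMP ligands, the 8 markers summed to 1.0 to 1.04 and 0.33 to 1.31 FPKM, with Wnt3a and Folr1 at 0 in all libraries. The 7 markers of the lateral ganglionic eminence summed to 34.8 to 37.5 FPKM in wild type and 36.4 to 38.0 FPKM in null libraries, and Foxp1 and Meis2 among them rose with the block. Their part in the levels of the members was not tested.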

How the data were processed

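Counts and FPKM values per gene and library come from the deposited table. Per the file headers its count columns hold read counts, and its FPKM columns hold the authors' FPKM. For each gene the FPKM were proportional to count over library total across libraries, within 0.001 for 21180 of 21180 genes checked. Gene lengths themselves were not compared. TopHat, Cufflinks 2.1.1 and the build GRCm38.p4 are listed per the submitters' processing notes, and which program counted the reads is not stated there. Genes were tested with edgeR 4.0.16 in R 4.3.3 (TMM, filterByExpr, robust quasi-likelihood fit, two-sided, Benjamini-Hochberg over 14929 genes, threshold 0.05), with genotype as the only term. Each SE is the absolute log2 ratio divided by the root of edgeR's F, and intervals are 95%. Alternatives used DESeq2 1.42.0 and limma 3.58.1.

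Deviations from the genotype mean correlated by 0.337, 0.723 and 0.530 between libraries of number 1, 2 and 3, all over 0.1, so the numbers were taken as pairs, from the data and not from the labels. Wild type 1 also correlated by 0.348 with null 3, so numbers 1 and 3 were not told apart by this. The pairing underlies every blocked call. In counts simulated for 14929 genes, the fit without the block recovered 17.9%, 61.2% and 87.9% of genes changed 1.5-, 2- and 4-fold. With the block, on counts simulated with pairing, these shares were 59.7%, 80.6% and 95.5%. False calls made up 6.72% without and 8.72% with the block. The simulation drew each gene independently and took the pairing as known, whereas here it was taken from the data. These shares therefore do not give the false share of the blocked calls made here.

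Values in every library are given for members called in either fit, the 2 most abundant per role, and members with non-overlapping groups and an absolute log2 fold change of at least 0.3; of the other pathway genes, for those called and the 3 largest changes. Acvr1b, Tgfbr2, Tgfb2, Id3, Smad7, Rgma, Twsg1, Gdf11 and the genes overlapping a member were added after their values were seen. The members and all lists were chosen with earlier results of these data known. Promoters come from RefSeq (GRCm38.p6). The number of sample columns left unused was 0. Counting floors cover counting error only.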

Additional observations from a re-analysis of the deposited data

How the results depend on the processing

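No member was called under the other scalings, without the count filter, by limma on FPKM, by DESeq2 without the block or with any 1 library left out and no block. With the replicate block 4 members, 1 other pathway gene and 597 genes in all were called (0, 0 and 22 without it), and DESeq2 with the block called 3 members and 163 genes. With the block and a pair left out, the counts ran from 0 to 5 members, from 0 to 3 other pathway genes and from 126 to 1193 genes (219 without pair 3); the 0 members came without pair 2. The 4 called members had a positive log2 ratio in every alternative run, from 0.12 (Acvr2a) to 0.48 (Bmpr2). They were picked as rises in these same libraries, so the kept sign is no separate support for them. The share of all tested genes that kept their sign was not computed. Genes called in all numbered 84 by DESeq2, 38 and 36 by limma with pseudocounts 0.1 and 1, 65 without the filter, and 2 to 34 with 1 library left out.

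The sign changed in 14 values over 19 named genes and 17 alternatives. With all libraries and no block, the differences of Smad4, Bmp8b and Acvr2b were near 0 (0.01, 0.09 and -0.06). Those of Id2 and Fst were larger, at 0.20 and -0.15, and also changed sign. Smad4 was at -0.010 with either limma pseudocount, at -0.0037 and -0.0024 with the block and without pair 1 or 2, and at -0.064, -0.028 and -0.007 without null replicate 2, wild type replicate 1 or wild type replicate 3 (up to 0.077 without wild type replicate 2). Bmp8b was at -0.067 (block, without pair 1) and -0.017 (without wild type replicate 1; up to 0.22 without wild type replicate 2), and Acvr2b at 0.042 (block, without pair 3). Fst was at 0.043 and 0.080 without null replicate 2 or wild type replicate 3 (down to -0.53 without null replicate 3), and Id2 at -0.050 (block, without pair 3) and -0.11 (without null replicate 3; up to 0.51 without null replicate 2). The cause was not tested. With no TMM scaling 2 members lay above and 2 below the wild type range, against 1 and 2 with it, since Id4 then did not overlap; over all tested genes the shares above and below were 4.95% and 8.06%, against 5.86% and 6.71%. Depth limits the low genes most, such as Smad6 with 4 to 18 counts per library.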
